A study of Homo sapiens with 4 samples.

Results

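The shared distal sites are 1836 places in the genome where TRIM24 and TRIM28 were both found on chromatin after androgen, away from gene starts. They were chosen by the site lists of the R1881 samples. A site of the TRIM24 list on chromosomes 1 to 22 or X became a member when 1 bp or more of it was shared with a TRIM28 site. Its centre also had to lie more than 5 kb from every annotated transcription start site (TSS) and more than 1 Mb from long unsequenced stretches of hg19. Of 9006 TRIM24 sites on these chromosomes, 4518 (50.2%) overlapped a TRIM28 site, 2432 of them were within 5 kb of a TSS and 250 more lay near an unsequenced stretch, which left the 1836 members (20.4%). The same distance rules gave 2 classes for comparison, 1590 TRIM24-only distal sites and 16514 TRIM28-only distal sites, among 107370 sites listed in all. Just inside the distance limit, the sites near ADGRG6 (10.1 normalized tags of TRIM24 and 6.3 of TRIM28 with R1881) and ZFHX3 (23.3 and 10.5) lay 5001 and 5011 bp from a TSS. Just outside it, the sites near IL1RAP (10.1 and 9.1) and FBLL1 (14.7 and 10.5) lay 4987 and 4986 bp away.

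The study mapped both proteins by ChIP-seq in LNCaP, an androgen-dependent prostate cancer cell line whose genotype the labels give as wild type. TRIM24 carried an HA tag in cells stably expressing it and was pulled down through the tag, so these sites are those of the tagged, added protein. TRIM28 was pulled down through an antibody to the protein itself, in LNCaP cells that the labels give without the tag, although the published legend names HA-TRIM24 cells for both. All cells were first kept for 3 days in charcoal-stripped serum, which holds little hormone, and then received the synthetic androgen R1881 (10 nM) or its solvent, ethanol, for 16 h. Each of the 4 conditions is 1 sample, so no difference between conditions has a replicate check and none was tested. The TRIM24 libraries held 11606880 (ethanol) and 12884097 (R1881) tags, and the TRIM28 libraries 25145171 (ethanol) and 14231181 (R1881). By these header totals the TRIM28 ethanol library was the deepest, so the TRIM28 lists may not be equally sensitive. The published methods describe reads being drawn at random to equal totals, which the headers do not show, and the headers were used here. No input library enters the deposited lists.

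TRIM24 and TRIM28 are large nuclear proteins of the same TRIM subfamily. TRIM24 reads histone tails and is known as a coactivator of the androgen receptor. TRIM28 is best known as the corepressor that KRAB zinc finger proteins bring to DNA, and it has also been linked to receptor coactivation. Neither is known for a strong DNA sequence preference of its own. The androgen receptor binds as a pair to the androgen response element (ARE), which is made of a pair of inverted half-sites, and in prostate cells it often binds beside FOXA1, a forkhead factor that opens chromatin.

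The sequences of 6 members show what was searched for. They are reference sequence of hg19, forward strand, 200 bp around the TRIM24 site centre. The capitals mark 1 full ARE and, where present, 1 forkhead core. The full ARE was written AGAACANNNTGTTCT with up to 2 mismatches, and the forkhead core was TGTTTAC, on either strand. The first pair are intense TRIM24 sites among members with a full ARE. The site near MDM4, which encodes a p53 inhibitor, is at chr1:204476094-204476293, has a full ARE with 1 mismatch and was listed in all 4 samples. Its window also holds a form of the B box, a promoter element inside tRNA genes. It had 83.0 TRIM24 and 9.8 TRIM28 tags with R1881. Whether it lies at a tRNA gene was not tested. The site in an intron of FHIT, a tumour suppressor gene, is at chr3:61218448-61218647 and was listed only with R1881.
MDM4: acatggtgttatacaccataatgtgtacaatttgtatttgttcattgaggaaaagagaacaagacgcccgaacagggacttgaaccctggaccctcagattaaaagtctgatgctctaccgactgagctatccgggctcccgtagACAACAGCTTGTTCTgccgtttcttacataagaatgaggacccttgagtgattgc
FHIT: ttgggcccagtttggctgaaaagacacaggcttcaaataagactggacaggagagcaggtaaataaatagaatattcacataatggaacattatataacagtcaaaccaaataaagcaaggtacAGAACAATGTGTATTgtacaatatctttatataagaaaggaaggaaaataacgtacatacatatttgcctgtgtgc
The next 4 hold both a full ARE and a forkhead core, and rank by TRIM24 tags among the top 5 such members. The first lies in an intron of IMMP2L, a mitochondrial peptidase gene, at chr7:110399197-110399396, and the others are intergenic, near CD34 at chr1:208124199-208124398, near C1orf87 at chr1:60740526-60740725 and near KPNA3, an importin gene, at chr13:50432770-50432969.
IMMP2L: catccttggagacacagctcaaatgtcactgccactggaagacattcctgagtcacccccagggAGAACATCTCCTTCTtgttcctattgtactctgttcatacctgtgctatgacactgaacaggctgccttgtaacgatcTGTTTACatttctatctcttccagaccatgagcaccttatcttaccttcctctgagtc
CD34: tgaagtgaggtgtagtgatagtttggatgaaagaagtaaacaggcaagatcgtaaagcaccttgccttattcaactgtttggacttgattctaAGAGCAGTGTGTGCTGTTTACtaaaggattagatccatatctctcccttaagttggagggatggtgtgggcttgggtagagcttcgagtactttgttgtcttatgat
C1orf87: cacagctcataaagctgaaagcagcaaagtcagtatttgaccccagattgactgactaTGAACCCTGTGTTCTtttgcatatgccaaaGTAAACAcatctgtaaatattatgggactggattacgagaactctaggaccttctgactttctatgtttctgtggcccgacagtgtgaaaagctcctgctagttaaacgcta
KPNA3: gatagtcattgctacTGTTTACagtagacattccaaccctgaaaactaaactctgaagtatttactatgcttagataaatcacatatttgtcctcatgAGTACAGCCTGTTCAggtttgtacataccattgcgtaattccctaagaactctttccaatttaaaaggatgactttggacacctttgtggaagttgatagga
Each of these ARE matches has 2 mismatches. Near CD34 the marked forkhead core follows the ARE directly and shares 1 base with it. Another forkhead core, on the other strand, lies before the ARE and is left in lower case. Near KPNA3 the ARE lies 6 bp and the forkhead core 81 bp from the TRIM24 centre.

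Members were slightly more intense than the lists they came from, whose medians with R1881 were 9.3 (TRIM24) and 7.7 (TRIM28) normalized tags. These tags, which the authors scaled to 10000000 tags per sample, had a median over members of 10.1 for TRIM24 with R1881 (interquartile range 7.8 to 13.2, range 5.4 to 281.7). The TRIM28 sites that members overlapped had a median of 9.1 with R1881 (7.7 to 12.6, range 5.6 to 425.1). These values chose the members and are a description. At each median a site rested on about 13 tags, and the 95% Poisson interval of such a count, which covers counting error only, ran from 5.37 to 17.3 normalized tags for TRIM24 and from 4.86 to 15.6 for TRIM28. The centres of both proteins were close, with a median distance of 35 bp (13 to 69 bp) and 1153 of 1836 pairs (62.8%) within 50 bp.

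By the ethanol lists the members fell into 4 kinds. Of the 1836, 553 (30.1%) were listed in neither ethanol sample, 781 (42.5%) in the TRIM28 ethanol sample only, 79 (4.3%) in the TRIM24 ethanol sample only and 423 (23%) in both. A site missing from a list was below its calling limit at that depth and is not shown to be unbound. Among all listed sites, the lowest value with ethanol was 6.0 tags for TRIM24 and 4.0 for TRIM28. Members listed in all 4 samples were the most intense, with medians of 14.6 (TRIM24, ethanol), 14.7 (TRIM24, R1881), 10.3 (TRIM28, ethanol) and 12.6 (TRIM28, R1881). Members listed with R1881 only had medians of 9.3 for TRIM24 and 8.4 for TRIM28, and none exceeded 44.2 or 29.5.

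**Figure D1:**
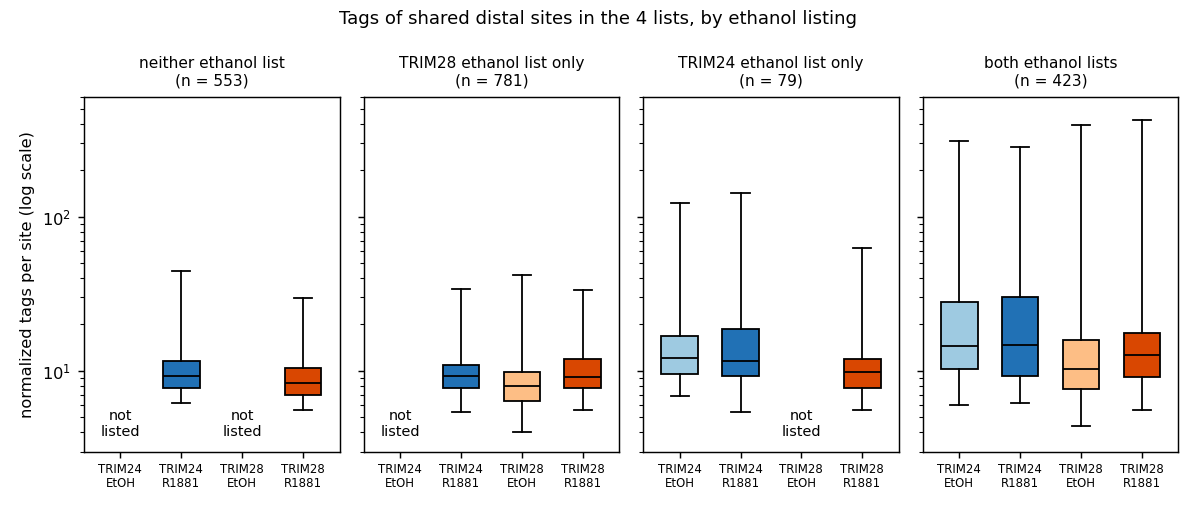
Normalized tags per site (log axis) of the 1836 members in each of the 4 samples, by whether the member was listed with ethanol. Boxes show the quartiles and median and whiskers the lowest and highest site. Sites above 50 tags occur only among members listed with ethanol for TRIM24.

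Members were listed in the TRIM24 ethanol sample more often than TRIM24-only distal sites. It listed 502 of 1836 members (27.3%, Wilson 95% interval 25.4 to 29.4) and 251 of 1590 TRIM24-only sites (15.8%, 14.1 to 17.7), beside 25.5% of all TRIM24 sites with R1881 (Fisher's exact test over sites, two-sided, odds ratio 2.01, p = 2.69e-16). The test compares classes of sites in these lists and says nothing of other cultures. Members also had more TRIM24 tags than TRIM24-only sites (median 10.1 against 8.5). When the sites were put into 4 groups of rising TRIM24 tags, the shares were 14.2% against 5.27%, 16.1% against 10.9%, 20.7% against 16.8% and 55.5% against 47.1%. Members had the higher share in each group, and the third did not pass the test (Fisher's exact test, p = 0.187).

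For TRIM28 the order of the classes depended on the strength of the sites compared. Of the TRIM28 sites that members overlapped, 1204 of 1836 (65.6%, 63.4 to 67.7) were listed with ethanol, against 10229 of 16514 TRIM28-only distal sites (61.9%, 61.2 to 62.7) and 62.6% of all TRIM28 sites with R1881 (Fisher's exact test, two-sided, odds ratio 1.17, p = 0.00231). In 4 groups of rising TRIM28 tags the shares were 45.9% against 46.5%, 58.1% against 55.7%, 63.1% against 67.4% and 74.7% against 86.1%. Only the strongest group passed the test, and there the order was turned, with 654 of 876 member sites and 3128 of 3634 TRIM28-only sites listed (Fisher's exact test, p = 4.16e-15). TRIM24-only distal sites overlapped a TRIM28 ethanol site in 24.4% of cases (388 of 1590). They were defined as lacking a TRIM28 site with R1881, and the overlap was read at the TRIM24 site. This share is therefore not comparable with the shares above.

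At members listed under both treatments, TRIM24 tags were on balance level and TRIM28 tags somewhat higher with R1881. For TRIM24, the median ratio of R1881 over ethanol was 0.988 (502 members), and the median over all 2298 TRIM24 sites listed under both was 0.981. Of these members 79 (15.7%) were at least 1.5-fold higher and 66 (13.1%) at least 1.5-fold lower, beside 15.6% and 10.8% of all TRIM24 sites. For TRIM28, the median ratio was 1.17 (1204 members) against 1.06 over all 21373 sites. At least 1.5-fold higher were 315 members (26.2%) and at least 1.5-fold lower 61 (5.07%), beside 13.1% and 7.00% of all TRIM28 sites. Members had to be listed with R1881, as had the sites set beside them, and the TRIM28 ethanol library was the deeper of its pair, so the ratios are given with no test. Among the 46 members with a full ARE and a TRIM28 value under both treatments, the median TRIM28 ratio was 1.47, with 23 at least 1.5-fold higher and 1 at least 1.5-fold lower. Only 5 members with a full ARE had TRIM24 values under both treatments.

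Forkhead and androgen receptor motifs were common at the members and centred on them. In the 200 bp around the centre, 337 members (18.4%, Wilson interval 16.7 to 20.2) held the forkhead core, 505 (27.5%, 25.5 to 29.6) the ARE half-site AGAACA and 108 (5.88%, 4.9 to 7.05) a full ARE. In windows of the same length 1 kb to each side of the same members, the shares were 3.02%, 15.4% and 1.33% of 3672. These differences were larger than the counting error (Fisher's exact test, Benjamini-Hochberg adjusted p = 2.39e-79, 5.31e-25 and 1.95e-19). The test took all windows as independent, although each member gave 2 flanks, so the pairing was not used. Over all TRIM24 sites with R1881, promoters included, the shares were 10.1%, 16.9% and 3.51%, and over all TRIM28 sites 8.91%, 18.8% and 2.13%. Of the full AREs, 2 had no mismatch, 20 had 1 and 86 had 2, so most were degenerate. A motif match is a description of the letters and not proof of a bound factor.

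Members were also set against TRIM28-only distal sites, a comparison added after the data had been seen. Among the TRIM28 sites of members, 17.6% held the forkhead core and 5.28% a full ARE, against 9.99% and 2.32% of TRIM28-only sites (odds ratios 1.93 and 2.35, adjusted p = 1.2e-19 and 1.2e-10, Fisher's exact test with Benjamini-Hochberg over 18 motif tests). The half-site was also more frequent, 26.4% against 22.5% (Fisher's exact test, adjusted p = 0.000898), but not with a local p of at most 1e-08 or among the stronger sites (adjusted p = 0.355 and 0.118). AP-1 did not pass, at 11.1% against 9.71% (odds ratio 1.16, exact test, adjusted p = 0.156). The CTCF motif, the mark of chromatin loop anchors, was rarer, at 3 of 1836 sites (0.163%) against 158 of 16514 (0.957%, Fisher's exact test, adjusted p = 0.000567). Against TRIM24-only sites, the difference in full ARE share did not pass (5.88% against 5.6%, Wilson interval 4.57 to 6.84, odds ratio 1.05, Fisher's exact test, adjusted p = 0.915).

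Only the forkhead core and AP-1 passed the test between members and TRIM24-only distal sites. The forkhead core was at 18.4% of members and 14.8% of TRIM24-only sites (odds ratio 1.29, Fisher's exact test, adjusted p = 0.0202). The AP-1 motif TGANTCA, which Jun and Fos factors bind, was at 11.3% and 7.67% (odds ratio 1.53, exact test, adjusted p = 0.00137). The half-site missed the threshold, at 27.5% against 24.1% (exact test, adjusted p = 0.0602), and passed with 400-bp windows and with TSSs of protein-coding genes alone (adjusted p = 0.00393 and 0.0307). Both calls were lost when the overlap had to cover 50% of the TRIM24 site, where the shares became 17.9% against 15.8% and 10.7% against 8.78%. The forkhead call was also lost without sites in repeated sequence (20.1% against 17.2%, exact test, adjusted p = 0.14), which made up 12.7% of members and 20.3% of TRIM24-only sites. Motifs of 3 other factors did not pass in either comparison, with odds ratios from 0.828 to 1.3. The GATA core AGATAA was at 13.3% of members. The HOXB13 motif CCAATAAA was at 2.02%, and CCGGAAG, bound by ETS factors, at 1.14%.

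**Figure D2:**
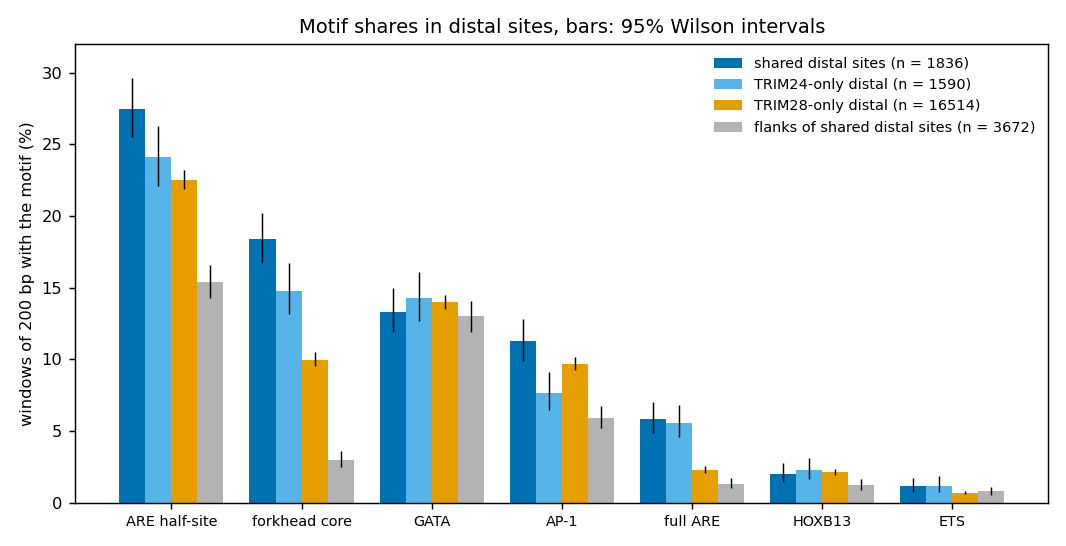
Share of 200-bp windows with each motif (percent) in the 1836 members, the TRIM24-only and TRIM28-only distal sites and the flanks 1 kb from members. Error bars are Wilson 95% intervals. The forkhead core is at 18.4% of members and 3.02% of flanks, whereas GATA is at 13.3% and 13.0%.

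Within 50 bp of the TRIM24 centre, the forkhead core occurred at a rate of 67.0 per 1000 sites per 50 bp, 7.78 times its rate 250 to 500 bp away. The full ARE occurred at 21.8, which was 5.8 times its outer rate, and AP-1 at 40.6, or 2.5 times. Around the TRIM28 centres of the same members the ratios were 7.1, 4.22 and 1.95. Both sets of centres therefore had the motifs in their middle. As the centres lay a median of 35 bp apart, these values are not independent of each other.

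**Figure D3:**
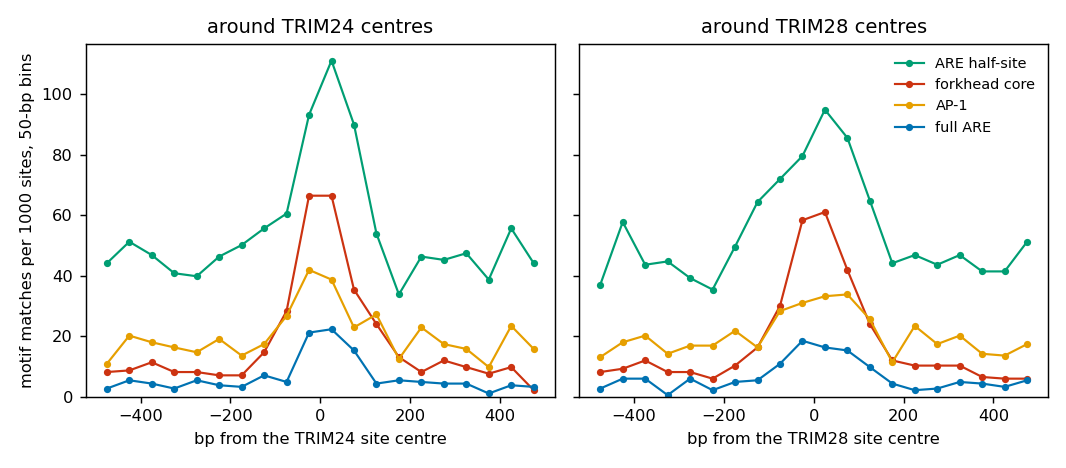
Motif matches per 1000 sites in 50-bp bins against distance in bp from the TRIM24 centre (left) and from the TRIM28 centre (right) of the 1836 members. The lines peak within 100 bp of the centre for every motif drawn, and the forkhead core peaks near 67 per 1000 sites around TRIM24 centres.

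Full AREs were most frequent in the members that neither ethanol list held. This split was made after the data had been seen, so it is given with intervals and no test. A full ARE was present in 61 of 553 members listed with R1881 only (11%, Wilson interval 8.68 to 13.9), in 42 of 781 listed in the TRIM28 ethanol sample only (5.38%, 4.0 to 7.19) and in 4 of 423 listed in both (0.946%, 0.368 to 2.41). The half-site went the same way, from 40.3% through 25.6% to 16.3%. The forkhead core was at 20.8%, 19.3% and 15.6%. In the 79 members listed in the TRIM24 ethanol sample only, the full ARE was at 1.27% (0.224 to 6.83), the half-site at 16.5% (9.88 to 26.1) and the forkhead core at 6.33% (2.73 to 14). Of the 108 members with a full ARE, 103 were therefore absent from the TRIM24 ethanol list. The other 5 (4.63%) were listed there, beside 27.3% of all members and 25.5% of all TRIM24 sites with R1881. Members listed with R1881 only were also less intense than those listed in all 4 samples (median 9.3 against 14.7 TRIM24 tags with R1881). Restricted to unique sequence without the B box form GTTCGANTC, the full ARE was at 11% of 507, 5.56% of 738 and 1.08% of 279 members. The MDM4 site, which holds another form of the B box, is kept in this set. TRIM24-only distal sites showed the same order, with a full ARE at 7.09% of 1043 sites listed in neither ethanol sample and at 2 of 251 sites (0.797%) listed in the TRIM24 ethanol sample.

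**Figure D4:**
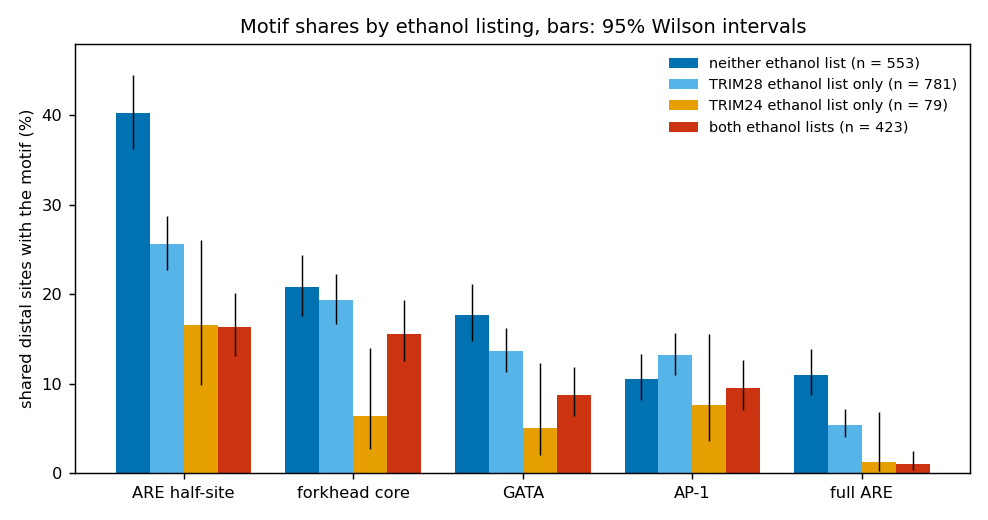
Share of members (percent) with each of 5 motifs, by listing in the ethanol samples, with Wilson 95% intervals as error bars. The full ARE falls from 11% of members listed with R1881 only to 0.946% of those listed in all 4 samples.

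Members with a full ARE reached at most 92.4 TRIM24 tags with R1881. The strongest, 8100 bp from the TSS of RNF141, had 110.3 and 92.4 TRIM24 tags with ethanol and R1881 and 43.7 and 52.0 TRIM28 tags. The words of its window occur a median of 2 times on the autosomes and X, so its reads cannot be placed with certainty. The mitochondrial genome was not counted, and whether this window has a copy there was not tested. The MDM4 site had 52.6 and 83.0 TRIM24 tags and 10.7 and 9.8 TRIM28 tags. Both were listed in all 4 samples, and the MDM4 window also holds GTTCAANTC. This is a second form of GTTCGANTC, the B box inside the promoters of tRNA genes, and was found at 3.27% of members and 2.83% of flanks. Only GTTCGANTC is counted as a B box here, so the MDM4 site is not among the members with a B box. The next 3 were listed with R1881 only. The site in an intron of ATAD2, which encodes a bromodomain protein, had 38.8 TRIM24 and 22.5 TRIM28 tags, the FHIT site 29.5 and 7.0, and the site 216717 bp from TGFB2, a growth factor gene, 19.4 and 17.6.

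The forkhead core was present in 21 of the 108 members with a full ARE (19.4%) and in 18.3% of the other members. After ATAD2, the strongest of the 21 were IMMP2L (16.3 TRIM24 and 9.1 TRIM28 tags with R1881), CD34 (14.7 and 16.2), C1orf87 (12.4 and 10.5) and KPNA3 (12.4 and 9.1). Of all 21, 10 (47.6%) were listed for TRIM28 with ethanol and 1 (4.76%) for TRIM24 with ethanol, beside 65.6% and 27.3% of all members. Of the 5 named here, none was listed for TRIM24 with ethanol, and only CD34 was listed for TRIM28 with ethanol, at 8.4 tags, 1.93-fold below its value with R1881.

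Several genes known to respond to androgen were the nearest protein-coding genes to members. Of 32 androgen-regulated genes in the list used, 11 (34.4%) were nearest to at least 1 member, beside 7.11% of all 20090 protein-coding genes. The list was compiled from general knowledge, with earlier results of these data known, and the counts were not tested. The nearest gene is a label of position and not a shown target. PMEPA1, an androgen-induced inhibitor of TGF-β signalling, had the most intense of these sites, with 25.6 TRIM24 and 14.8 TRIM28 tags with R1881 and no ethanol listing, 61818 bp from the TSS at chr20:56348332-56348488. SLC45A3, which encodes prostein, had 17.1 TRIM24 tags with R1881 and 8.4 TRIM28 tags under both treatments.

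ZBTB16, a zinc finger factor gene, had 5 members, of which 3 lay in its introns and 2 were intergenic. Their TRIM24 tags with R1881 ran from 8.5 to 14.7, and 1 of the 5 was listed in all 4 samples. SGK1, a hormone-induced kinase gene, had 2 members, the closer with 5.6 and 10.5 TRIM28 tags with ethanol and R1881. The members nearest to ABCC4, ELL2, STEAP4 and PTGER4 had between 7.8 and 13.2 TRIM24 tags with R1881. Those nearest to SPDEF and NDRG1 were listed in all 4 samples. Their TRIM24 tags were 11.2 and 10.3 with ethanol and 7.0 and 7.8 with R1881. The NDRG1 site lay in an intron of CCN4, 24927 bp from the NDRG1 TSS. The PTGER4 site lay in an intron of TTC33, 127525 bp from the PTGER4 TSS.

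Of 10 prostate lineage factors, 4 (40%) were nearest to a member, beside 7.11% of all protein-coding genes. These counts were not adjusted for the space between genes, and 1 SOX9 member lay 482221 bp from the TSS. GRHL2, an epithelial factor gene, had 2 members with 11.6 and 17.9 TRIM24 tags, listed with R1881 only. SOX9 had 2 members with 6.2 and 9.3 TRIM24 tags with R1881, and HOXB13 had 1 with 8.5. Of 18 receptor coregulators, 2 (11.1%) were nearest to a member, a share near the 7.11% of all protein-coding genes. One was TRIM33, the third gene of the TRIM24 subfamily, with 10.3 and 9.3 TRIM24 tags and 17.1 and 11.2 TRIM28 tags with ethanol and R1881. Of the 23 members nearest to a gene of these 3 lists, 9 (39.1%) were listed with R1881 only, beside 30.1% of all members. Another 10 (43.5%) were also listed for TRIM28 with ethanol and 4 (17.4%) in all samples, beside 42.5% and 23% of all members. None of the 23 lay in repeated sequence and none held a full ARE, beside 12.7% and 5.88% of all members. Of 516 zinc finger genes, which include well-known TRIM28 targets, 19 (3.68%) were nearest to a member, beside 7.11% of all protein-coding genes.

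The most intense members were a different set. Of the 131 members with more than 30 TRIM24 tags with R1881, 123 were listed for TRIM24 with ethanol and 109 (83.2%) in all 4 samples, against 314 of 1705 weaker members (18.4%). Of the 131, 71 (54.2%) lay in repeated sequence or held a B box, against 11.2% of the weaker ones. Repeated sequence means that the 31-base words of the 200-bp window occur more than once on the autosomes and X (median count above 1), where reads cannot be placed with certainty. Copies elsewhere, such as in the mitochondrial genome, were not counted, so a window called unique may still have them. Of the 16 members above 100 tags for either protein, 12 were in repeated sequence, all were listed for TRIM24 with ethanol, 1 held the forkhead core and none held a full ARE. The part of repeated sequence or of the missing input library in these values was not tested.

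The strongest TRIM24 member lay 10217 bp from the end of chromosome 12, nearest to ANHX. It had 309.3 and 281.7 TRIM24 tags with ethanol and R1881 and 149.9 and 248.0 TRIM28 tags, and the words of its window occurred a median of 656 times. The strongest TRIM28 member, near the centromere protein gene CENPC at chr4:68265506-68265662, had 394.5 and 425.1 TRIM28 tags and 204.2 and 180.8 TRIM24 tags. Its sequence is unique by this measure, which leaves out the mitochondrial genome. Both members were high in all 4 samples, and only the TRIM28 tags near ANHX differed between treatments by more than 1.5-fold. The site near PRDM7, the relative of a recombination factor gene, was strong for TRIM24 (183.5 and 190.2) and weak for TRIM28 (6.4 and 9.1). FAM27E3, on chromosome 9, was the nearest gene to the most members. Its 10 members lay 465837 bp or more from it, 9 were in repeated sequence and 9 were listed in all 4 samples. TRIM51G followed with 8, then ANKRD30BL, FOXD4L5 and ZNF184 with 7 each, while 1148 of the 1428 genes with a member had 1.

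**Figure D5:**
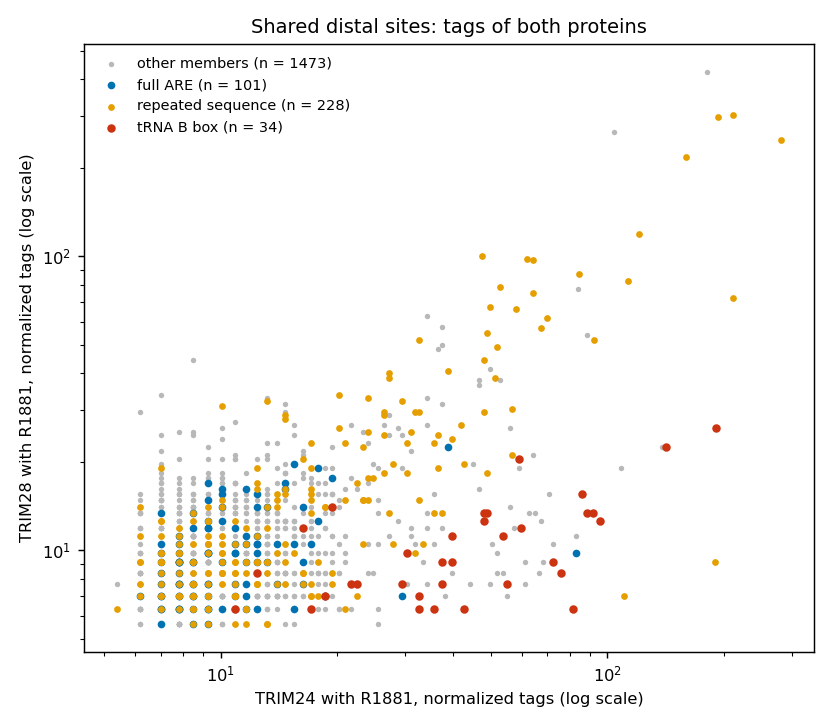
TRIM28 against TRIM24 normalized tags with R1881 at the 1836 members (log axes). Points are coloured red for a tRNA B box, otherwise orange for repeated sequence, otherwise blue for a full ARE. Repeated sites run up the diagonal to 281.7 and 302.2 tags, and B box sites reach 190.9 TRIM24 tags while staying at or below 26.0 TRIM28 tags.

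Members with a B box had high TRIM24 tags and TRIM28 tags near those of all members. This group was formed after the data had been seen and is given with no test. The B box, searched on both strands of 400-bp windows, was present in 34 members (1.85%), 30 of 1590 TRIM24-only sites (1.89%), 17 of 16514 TRIM28-only sites (0.103%) and 10 of 3672 flanks (0.272%). Over all sites with R1881 it was at 2.04% for TRIM24 and 0.498% for TRIM28. The share of members was thus near that of all TRIM24 sites. The gene annotation used holds no nuclear tRNA genes, so whether these matches lie at tRNA genes was not tested. The 34 members had median TRIM24 tags of 31 with ethanol (33 listed, range 10.3 to 103.4) and 41.2 with R1881 (10.9 to 190.9). Their TRIM28 medians were 9.3 with ethanol (30 listed) and 9.1 with R1881 (range 6.3 to 26.0), beside 8.4 and 9.1 for all members. TRIM24 tags were higher with R1881 in 30 of 33 (90.9%), with a median ratio of 1.6 and 19 (57.6%) at least 1.5-fold higher. Over all TRIM24 sites listed under both treatments, 46.9% were higher and 15.6% at least 1.5-fold higher. TRIM28 tags were higher in 11 of 30 (36.7%), with a median ratio of 0.906, beside 56.8% of all TRIM28 sites listed under both treatments.

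On chromosome 6, 13 B box members lay between 26305628 and 28510976, among histone and zinc finger genes. They include 6 of the 7 members nearest to ZNF184, whose TRIM24 tags with R1881 ran from 17.1 to 42.7 and whose TRIM28 tags ran from 6.3 to 7.7. The densest 1-Mb stretch of members, with 15 sites of which 8 held a B box, lay within this span.

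Members and TRIM24-only distal sites had nearly the same places in the annotation. Of the 1836, 1038 (56.5%) were in introns, 741 (40.4%) intergenic and 57 (3.1%) in exons, and 56.5% of TRIM24-only sites were in introns (Fisher's exact test, two-sided, odds ratio 1, p = 1). The median distance to the nearest protein-coding TSS was 36167 bp (14959 to 111625), against 39356 bp for TRIM24-only and 37956 bp for TRIM28-only distal sites. Median GC content was 42.5% in TRIM24-only sites, 43.5% in TRIM28-only sites and 44% in members. Members stood mostly alone, since 182 (9.91%) had another within 10 kb and 368 had one within 50 kb.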

How the data were processed

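LNCaP cells were profiled by ChIP-seq in 4 conditions of 1 sample each, grouped by their labels. The authors aligned reads to hg19 with BWA (0.6.1 per the submitters' processing notes) and called sites per sample with HOMER 4.1, at a false discovery rate of 0.001 and, per the file headers, at least 4-fold over the surrounding 10 kb with p at most 1e-04, without input. The deposited signal is a tag count per site that the authors normalized to a library of 10000000 tags. Also deposited were a ratio, the fold of each site over its surroundings, and an unadjusted Poisson p-value against them. Both entered alternatives only.

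Sites were matched by 1 bp overlap. A TRIM28 ethanol listing was read at the TRIM28 site that a member overlaps, and the TRIM28 site with most tags was taken where several overlapped. TSSs and genes came from GENCODE release 44 on GRCh37, and sequence from the same assembly, the counterpart of hg19. Motifs were searched on both strands in 200 bp (B box 400 bp), CTCF with up to 3 mismatches to the published consensus. Shares have Wilson 95% intervals and classes of sites were compared by two-sided Fisher's exact tests, which treat sites as units and do not measure the spread between cultures. Motif p-values were adjusted by Benjamini-Hochberg over 18 tests, and over 9 in the comparison with the flanks. The intervals and tests cover the sampling of sites only.

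The members and gene lists were chosen with earlier results of these data known. The named sites are the 10 strongest for each protein, the 5 strongest with a full ARE and with a full ARE and forkhead core, those nearest to a gene of the androgen, lineage or coregulator lists, and the 5 genes with most members. Not all of them are reported here. The B box sites, the split by ethanol listing, the repeated-sequence measure, the rule on ethanol lists and the motif comparison with TRIM28-only sites were added after seeing the data. Scripts were tested on simulated sites and planted motifs. Tests ran in scipy 1.17.1 and tables in pandas 2.3.3 (numpy 2.4.6) under Python 3.11.15, word counts in numba 0.67.0 and plots in matplotlib 3.10.9.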

Additional observations from a re-analysis of the deposited data

Results flagged for a closer look

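At members listed under both treatments, the median log2 ratio of normalized tags, R1881 over ethanol, was -0.017 for TRIM24 (502 members) and 0.22 for TRIM28 (1204 members). The signs differ, which is why they are listed here. The 95% order-statistic interval of the TRIM24 median over sites, -0.076 to 0.035, includes 0, and the median was above 0 in 4 of 11 alternatives, so no direction is shown for TRIM24. With 1 sample per condition the difference was not tested. These medians cover different sets of members. At the 423 members listed in all 4 samples, the medians were -0.031 for TRIM24 and 0.157 for TRIM28.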

How the results depend on the processing

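The number of members was 1836 and moved by more than 1.5-fold to 639 with a local p of at most 1e-08 in both lists, to 929 with the 50% of each list that had most tags and to 1043 when the rule was applied to the ethanol lists instead. The other 9 alternatives stayed within 1.5-fold.

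The odds ratio for TRIM24 ethanol listing (2.01) kept its side of the threshold in 15 of 16 alternatives (range 1.29 to 2.97) and lost it in the third of 4 groups by TRIM24 tags (1.29). The TRIM28 odds ratio (1.17) lost its call with a TSS limit of 10 kb (1.11), with 1 site per 10 kb (1.07) and in the second of 4 groups by TRIM28 tags (1.10). It turned below 1 with a local p of at most 1e-08 (0.753), in the stronger sites (0.895) and in the first (0.975), the third (0.824) and the last (0.477) of these groups.

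The number of motifs passing against TRIM24-only sites (2) became 0 with 50% overlap and with a local p of at most 1e-08, 1 with a 10 kb limit, in the stronger sites and without repeated windows, 3 (with the half-site added) with protein-coding TSSs and with 400-bp windows, and 6 against the flanks. The forkhead and full ARE differences from TRIM28-only sites passed in 13 of 13 alternatives. The intron odds ratio stayed between 0.98 and 1.11.

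The TRIM24 median log2 ratio moved to 0.037 with a local p of at most 1e-08 and to 0.086 in the stronger sites. The TRIM28 median moved to 0.50, 0.36 and, on the deposited fold, 0.30. The first 2 settings select on the R1881 value itself. The exclusion of repeated windows, the exclusion of B box sites, the ethanol lists and the comparison with TRIM28-only motifs were added after seeing the data. The causes of the other changes were not tested. No paired comparison of conditions was possible because each condition is 1 sample. About 13 tags at a median site limit every single-site value.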
